A study of Homo sapiens with 4 samples.

Results

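FASN and 9 glycolytic enzyme genes were followed through a list of P5CS RNA sites, and 66 of the 17625 listed sites, or 0.374%, were assigned to them. A site belonged to the set when the gene symbol beside it in the list was FASN, GPI, PFKP, ALDOA, TPI1, GAPDH, PGK1, ENO1, PKM or LDHA. Of these 10 genes 7 had a site and 3 had none. The genes were chosen with their numbers of sites in this same list known, so the counts below are a description and carry no test.

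The sites come from LACE-seq of NCI-H1299, an established cell line labelled as human lung adenocarcinoma. In LACE-seq a protein is precipitated together with its RNA, and the cDNA ends made on that RNA are amplified, which places contacts of the protein on the genome. Of the 4 libraries 2 used anti-P5CS and 2 used IgG, a control antibody without a target of its own, and no treatment or genotype is named for either group. P5CS is the enzyme encoded by ALDH18A1 that turns glutamate into pyrroline-5-carboxylate, and the series title names the question whether it also binds RNA and acts on translation.

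The list holds a position, a strand, a region and a gene for each site on build hg38, and no level, score or column per library. The anti-P5CS libraries could thus not be set against the IgG ones, the depth is unknown, and no value has a replicate error. The labels and headers do not say whether sites found with IgG were removed. Nor do they say whether the listed strand is that of the RNA or of the cDNA read. A listed site is not a measured excess over IgG, and a gene without one is not shown to be unbound. The intervals given are exact 95% Clopper-Pearson intervals that cover counting error only, and sites of 1 gene are not independent, so they are too narrow.

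Glycolysis splits glucose into pyruvate in the cytosol, and lactate dehydrogenase then turns pyruvate into lactate. Fatty acid synthase, the product of FASN, joins acetyl and malonyl units into palmitate in the same compartment. Tumour cells often run both pathways at a high rate, and several glycolytic enzymes, GAPDH among them, are known to touch RNA as proteins. The sites described here lie on the transcripts or genes of these enzymes and say nothing about the proteins. The bases under the sites were not analysed here, as only positions were used.

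FASN held most of the sites, and most of those lay in exons. Its RefSeq span is chromosome 17, positions 82078338 to 82098236, and it carried 38 sites between 82079120 and 82097580. Among 2645 protein-coding genes named in the list, FASN ranked 20 by number of sites, level with CENPM. The median of those genes was 2 sites, and 1062 of them had 1. Of the 38 FASN sites 28 were in exons, 9 in introns and 1 in the 3' UTR. None was in the 5' UTR.

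The 9 glycolytic enzymes together had 28 sites, spread over 6 genes. GPI had 12, GAPDH 8, ENO1 4, PKM 2, and PFKP and TPI1 1 each. ALDOA, PGK1 and LDHA had 0. Of all protein-coding RefSeq genes, 13.2% were named in the list for at least 1 site (2645 of 20056). Since the genes were picked from this list, their 7 of 10 is set beside that share without being read against it.

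**Figure D1:**
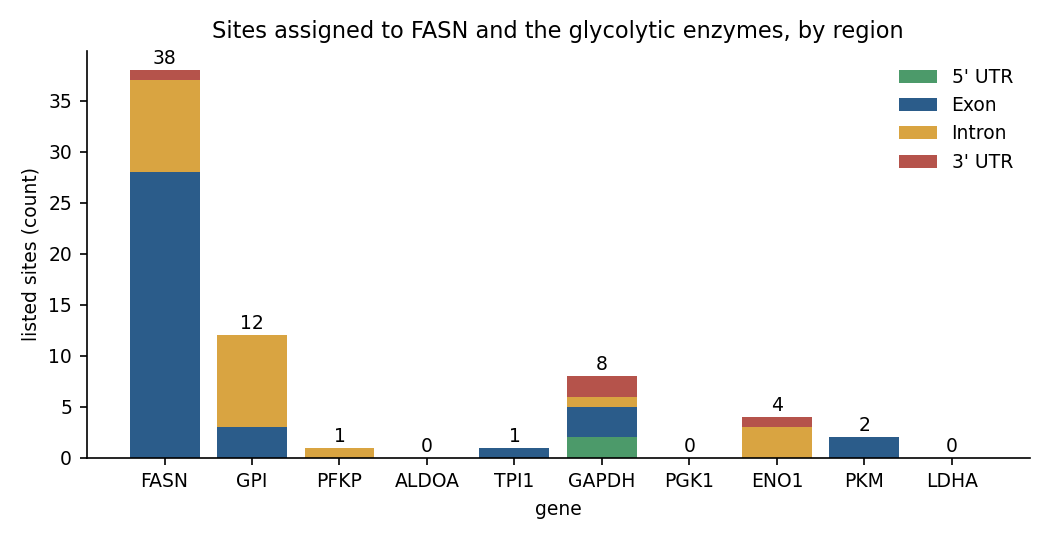
Bars give the number of listed sites (vertical axis, count) for each of the 10 genes, stacked by region and with the total above each bar, FASN at the left and the glycolytic enzymes in pathway order. FASN reaches 38 sites, most of them exonic, GPI 12 sites, most of them intronic, and ALDOA, PGK1 and LDHA stand at 0.

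The FASN sites ran through the length of the transcript. In the assigned transcript of 43 exons, sites fell in 17 exons, the lowest being exon 3 and the highest exon 40. Exon 37 had 3 sites, more than any other FASN exon. Exons 8, 9, 15, 17, 20, 23, 33, 36 and 40 had 2 each, in every case 1 on each strand. Exons 3, 14, 19, 24, 26, 27 and 29 had 1 each. The intronic sites lay in introns 1, 2, 8 and 11 with 2 each and in intron 5 with 1. Divided into 10 equal parts from the 5' end, the transcript span had between 1 and 7 sites per part, with 7 in the ninth part, 1 in the last and 2 in the first.

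Sites at the same place on both strands make the number of separate places smaller. When overlapping sites were joined without regard to strand, the 38 FASN sites came to 24 loci covering 604 bases. The gaps between neighbouring loci ran from 119 to 2179 bases, with a median of 599. Of the 24 loci 18 were exonic and 5 intronic, and the last was in the 3' UTR. All sites were narrow, 31 of 38 at the smallest width in the list, 21 bases, and the widest at 41.

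**Figure D2:**
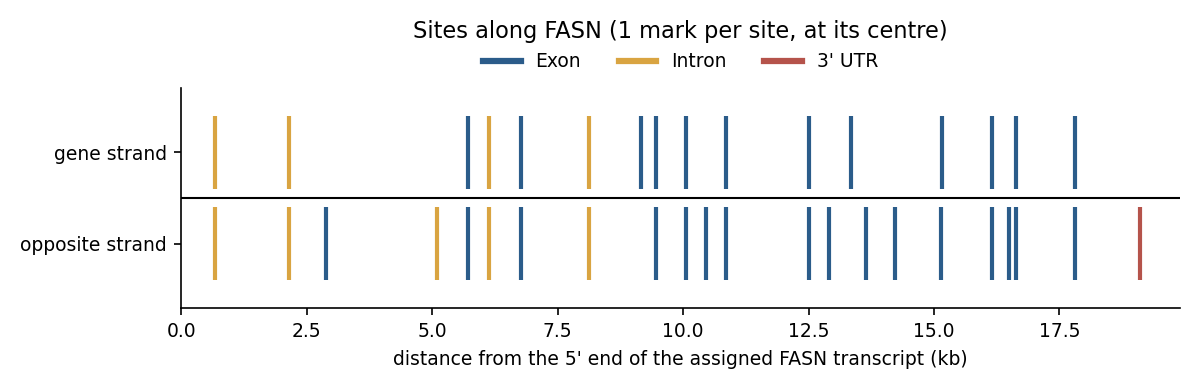
Each mark is 1 FASN site at its distance in kb from the 5' end of the assigned transcript (horizontal axis), in the upper row if it lies on the gene strand and in the lower row if it lies on the opposite strand, coloured by region. Of the 16 sites on the gene strand 14 have a site below them, whereas 8 of the 22 sites on the opposite strand have none above.

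The strands of the FASN sites were close to even. On the strand opposite to the gene lay 22 sites, or 57.9% (40.8 to 73.7), and on the gene strand 16. Over the whole list 58.3% of sites were opposite to their gene. Of the FASN sites 26, or 68.4% (51.3 to 82.5), formed 13 pairs with identical start and end on both strands. The share was 39.3% in the whole list and 48.5% in exon sites of the whole list. Both sites of a pair count in this share, so its interval is too narrow to set FASN apart from the list. A further locus in exon 33 had overlapping sites of unequal width on both strands. Thus 14 of 24 loci had both strands, 10 of the 18 in exons and 4 of the 5 in introns. That was 58.3% of FASN loci beside 40.6% of loci in the whole list. Among exon loci it was 55.6% in FASN beside 46.1% in the whole list. These differences were not tested. Of the 10 loci with 1 strand, 8 were opposite to the gene and 2, in exons 14 and 26, lay on its strand. The pairs add equally to both strands, so the near-even split of all FASN sites rests on them.

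One of the intronic pairs coincides with a small RNA gene. SNORD134, a small nucleolar RNA gene, lies inside FASN at positions 82089960 to 82090140 in the RefSeq table, and both sites of intron 11 (82090100 to 82090140) overlap it. The list assigns these 2 sites to FASN, and reads from the small RNA and from the FASN intron cannot be told apart there. Without them FASN had 36 sites. PFKP also holds a small nucleolar RNA gene, SNORD142, and ENO1 the microRNA gene MIR6728, and neither had a site.

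Read against other genes with many sites, FASN had an exon share above the median. At 73.7% (56.9 to 86.6) it ranked 52 among the 183 protein-coding genes with 10 or more sites. Over those genes the median exon share was 46.7%, with a lower quartile of 15.0% and an upper quartile of 76.6%. Its share of sites in pairs ranked 31, where the median gene had 52.2%. Its 1.91 sites per kb of transcript span ranked 32, against a median of 0.541. The summed length of exons was not analysed here, so an exon share is not an enrichment.

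Protein-coding genes close to FASN in number of sites varied in where the sites lay. CENPM, a centromere protein gene with 38 sites, had 3 in exons. SPPL2B, an intramembrane protease gene, had 1 of 37 in an exon. HSPG2, which encodes the matrix protein perlecan, had 35 of 36 in exons. SCD, the desaturase that acts on the fatty acids downstream of FASN, had 8 of 36 in exons and 24 in the 3' UTR. FASN lay below HSPG2 and above SCD, CENPM and SPPL2B in exon share. A little further off in number of sites, some genes had exon shares near that of FASN. PKD1 had 29 of 42 sites in exons, PIEZO1 36 of 45 and APLP2 25 of 33, whereas CTBP1 had 6 of 43 and GAS6 0 of 33. The layout of FASN is thus not particular to it.

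**Figure D3:**
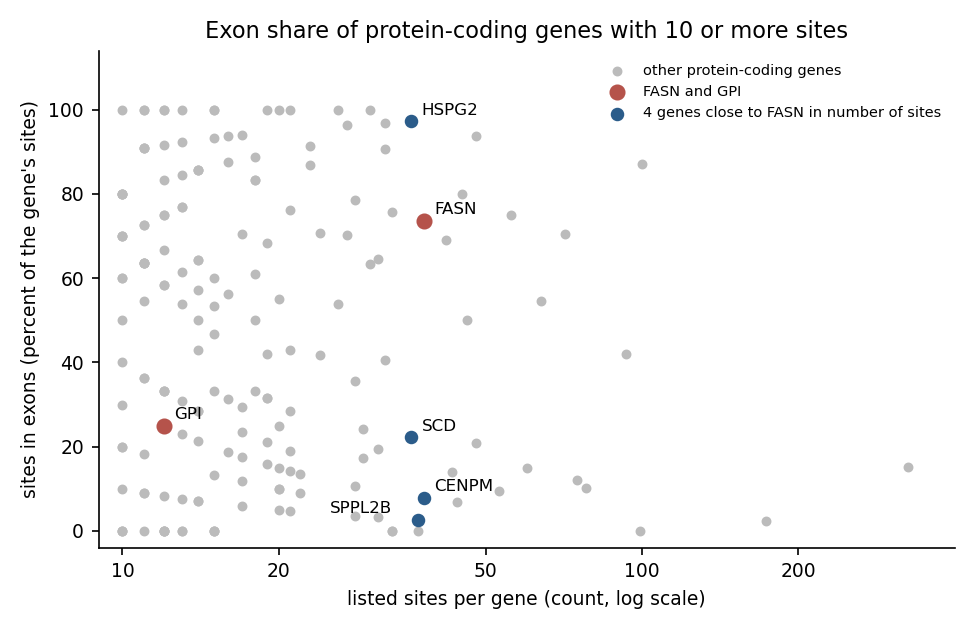
Each point is 1 of 183 protein-coding genes with 10 or more sites, placed by its number of sites (horizontal axis, count on a log scale) and the percent of them in exons (vertical axis), with FASN and GPI in red and 4 genes close to FASN in number of sites in blue. FASN sits at 38 sites and 73.7%, below HSPG2 and above SCD, CENPM and SPPL2B, and GPI at 12 sites and 25%.

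GPI, the isomerase that turns glucose-6-phosphate into fructose-6-phosphate, differed from FASN in that its sites were mostly intronic. Its RefSeq span is chromosome 19, positions 34359718 to 34402413. Of its 12 sites 9 lay in intron 10 of 18 of the assigned transcript, between 34383560 and 34392580. Exon 6 held 1 pair and exon 15 held 1 site. GPI sites were 8 opposite to the gene and 4 on its strand, with 2 pairs, 1 in exon 6 and 1 in intron 10. The 12 sites came to 10 loci with a median gap of 1919 bases. No other RefSeq gene overlapped the span of GPI.

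GAPDH, which oxidises glyceraldehyde-3-phosphate and reduces NAD, had 8 sites in a short gene. Its span is chromosome 12, positions 6534517 to 6538371, so 2.08 sites fell per kb of transcript, a density near the 1.91 of FASN. It was the only one of the 10 genes with 5' UTR sites. That region had 2, of 61 and 41 bases, which overlapped on opposite strands. Exon 7 of 9 had 1 site, exon 8 a pair, intron 2 a single site and the 3' UTR 2 overlapping sites on opposite strands. Of its 5 loci 3 had both strands, in the 5' UTR, in exon 8 and in the 3' UTR, and the other two lay opposite to the gene.

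GAPDH also has many pseudogene copies, which bears on how surely its exon sites are placed. The RefSeq table lists 65 pseudogenes named after GAPDH, of which 4 (GAPDHP35, GAPDHP40, GAPDHP65 and GAPDHP76) overlapped 5 sites in all. Of the 5 pseudogenes named after PKM, PKMP1 overlapped 1 site. Of the 18 named after ALDOA, TPI1, PGK1, ENO1 or LDHA, 0 had a site. The share over all pseudogenes was not computed, so these counts have no background to be read against. How reads that match several copies were placed is not stated in the sources used here, so the exonic and UTR sites of GAPDH, PKM, TPI1 and ENO1, which all have such copies, are uncertain to that extent. Intronic sites are outside processed copies, and GAPDH had 1 of them.

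ENO1, the enolase that makes phosphoenolpyruvate, had 4 sites and none in an exon outside the untranslated regions. Its span is chromosome 1, positions 8861000 to 8878686. Intron 2 held a pair at 8873260 to 8873280, intron 1 a site 226 bases from the transcript start and the 3' UTR a site at 8861260 to 8861280. The sites of intron 1 and the 3' UTR lay opposite to the gene. By distance to the start of its assigned transcript, the intron 1 site was the nearest among all 66 sites.

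PKM, the pyruvate kinase that closes glycolysis, had 1 pair of sites. It lay in exon 10 of 11 of the assigned transcript, on chromosome 15 at 72200600 to 72200620. TPI1, which interconverts the pair of triose phosphates, had 1 site, in exon 1 of 7 on chromosome 12 at 6867600 to 6867620. PFKP, the platelet form of phosphofructokinase, had 1 site in intron 17 of 22 on chromosome 10 at 3125520 to 3125540. The sites of TPI1 and PFKP lay opposite to the gene.

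ALDOA, which splits fructose-1,6-bisphosphate, PGK1, the first ATP-yielding kinase of the pathway, and LDHA had no listed site. Their RefSeq spans on chromosomes 16, X and 11 overlapped 0 sites on either strand, and so did the 20 kb on either side of each. In the same flanks of the 7 genes with sites, FASN had 4, all assigned to its neighbour DUS1L, and GPI, GAPDH, ENO1, PKM, PFKP and TPI1 had 0. No listed site thus lay close outside any of these 6 genes.

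**Figure D4:**
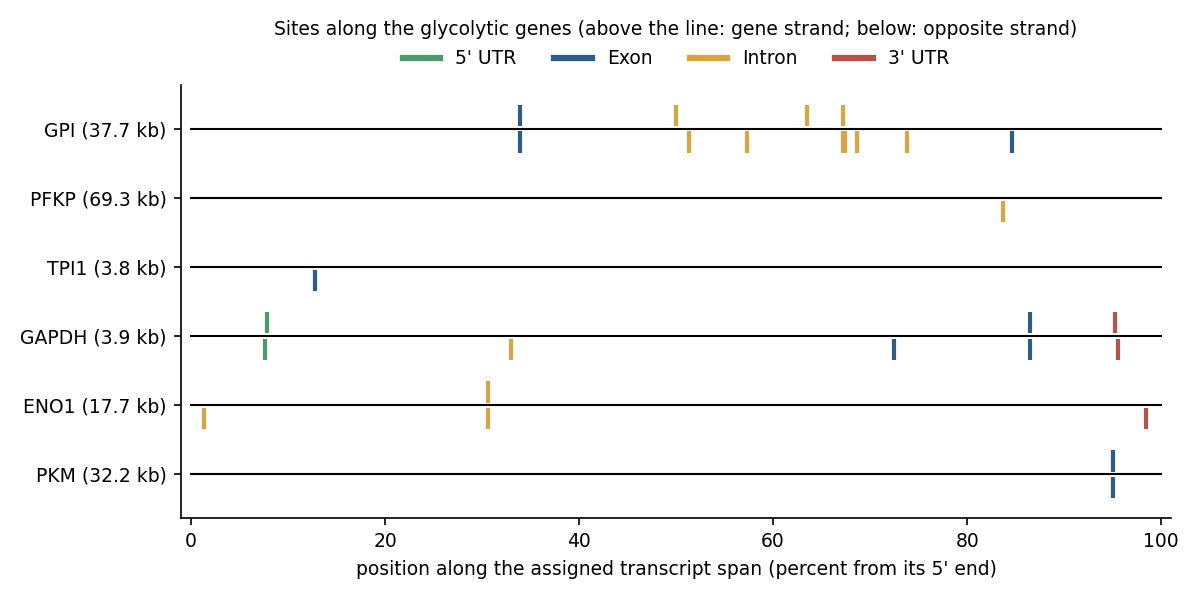
Each row is 1 glycolytic gene with sites, its assigned transcript drawn from the 5' end (0 percent) to the 3' end (100 percent), with marks for sites above the line on the gene strand and below it on the opposite strand, coloured by region. The GPI sites gather in the intronic stretch past the middle, those of GAPDH lie at both ends, in late exons and in intron 2, and 19 of all 28 marks lie below the lines.

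Over the 6 glycolytic genes with sites, exons held 9 of 28 sites, or 32.1% (15.9 to 52.4), and introns 14, or 50% (30.6 to 69.4), of which GPI gave 9. For FASN the exon share was 73.7%, and in sites of all protein-coding genes it was 44.2%. The intron share in sites of all protein-coding genes was 36.4%, a value inside the intron interval of the glycolytic genes. Pairs held 10 of the 28, or 35.7% (18.6 to 55.9). On the opposite strand lay 19, or 67.9% (47.6 to 84.1), an interval that holds the 57.9% of FASN. None of these differences was tested.

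Where a locus of the 10 genes had sites on 1 strand only, that strand was mostly the one opposite to the gene. This was so at 20 of 24 such loci, or 83.3% (62.6 to 95.3), and 4 lay on the gene strand, 2 in FASN and 2 in GPI. In the whole list the share was 70.8% (5086 of 7184). The interval of the 10 genes holds the value of the whole list, and the difference was not tested. Over all 66 sites the exon share was 56.1% (43.3 to 68.3), and it was 32.1% without FASN. The whole list had 36.2% of its sites in exons.

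None of the 66 sites was annotated as promoter or touched the start of its assigned transcript, where 1.90% of all listed sites are annotated as promoter. None overlapped any of the 16 windows around RefSeq starts of the 9 glycolytic genes, each reaching from upstream of a start into the first bases of the transcript, and FASN has no such window here. Over all genes 0.686% of such windows (241 of 35116) held a site, so 0 of 16 is near the background. The 5' UTR class held 2 of the 66 sites, or 3.03% (0.369 to 10.5), against 6.21% of the whole list, a value inside that interval. The 3' UTR class held 4 of its 822 sites in these genes, 2 in GAPDH and 1 each in FASN and ENO1. That was 6.06% (1.68 to 14.8) of the 66 sites, an interval that holds the 4.66% of the whole list.

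Around FASN, the other genes of fatty acid synthesis had sites at a few steps. Of a list of 25 genes, 8 had a site, FASN included, or 32.0% beside 13.2% of all protein-coding genes. By RefSeq span it was 9, since a site not assigned to FADS1 overlaps the span of that gene. Of the 24 genes other than FASN, 7 had an assigned site. The list was chosen with earlier results of these data known, so this share is not a finding. SCD, with 36 sites, came next to FASN. Both SREBF1 and ELOVL5 had 8, SREBF1 encoding a transcription factor that drives FASN and SCD, and ELOVL5 an elongase of polyunsaturated fatty acids. SREBF2, FADS2 and ELOVL6 had 2 each and ELOVL1 had 1. The enzymes directly ahead of FASN, ACLY and ACACA, had 0, and so did ACACB. FASN had 1 of 38 sites in the 3' UTR, against 24 of 36 in SCD. In sites of all protein-coding genes the 3' UTR share was 8.03%.

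In the full glycolysis list of 27 genes, 7 had a site, or 25.9% beside the 13.2% of all protein-coding genes. Of the 18 genes in that list other than the 9 described above, 1 had a site, GAPDHS, the sperm form of GAPDH, with 2 sites on its own strand. The hexokinases HK1 and HK2, the other phosphofructokinases PFKL and PFKM, the mutase PGAM1 and LDHB had 0. The 9 enzymes were chosen with their counts known, so this split is not a finding.

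Genes that carry sugar and lactate across the membrane also had sites. Of 8 such genes 4 had one, or 50% beside the 13.2% of all protein-coding genes. These genes too were listed with earlier results of these data known, so the share is not a finding. By RefSeq span it was 3, since the SLC2A3 site lies outside the span of that gene. SLC16A3, the transporter that exports lactate, had 21, and BSG, the chaperone that brings it to the surface, had 11. The glucose carriers SLC2A1 and SLC2A3 had 2 and 1. SLC16A3 had 8 intronic, 6 5' UTR, 4 exonic and 3 3' UTR sites, and BSG 7 exonic and 4 intronic ones.

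**Figure D5:**
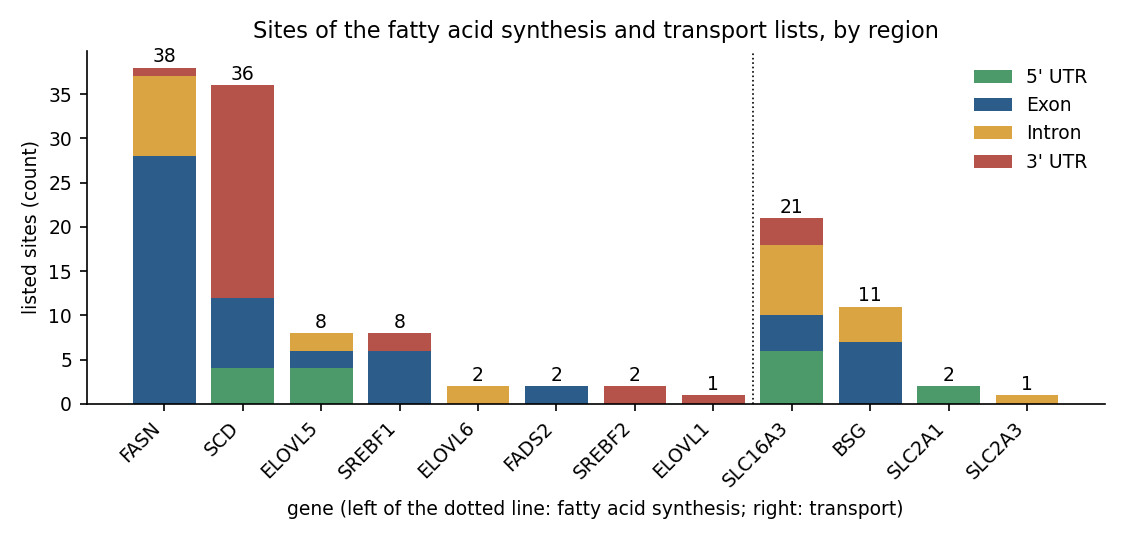
Bars give the number of sites (vertical axis, count) by region for the genes with a site in the fatty acid synthesis list (left of the dotted line) and the transport list (right of it). FASN and SCD have similar heights, 38 and 36, with exons leading in FASN and the 3' UTR in SCD, and SLC16A3 leads the transporters with 21.

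In neighbouring pathways sites were counted in the same way. None of 7 genes of the pentose phosphate pathway had a site. Of 20 genes of the tricarboxylic acid cycle 3 had one, 15.0%, with 5 in IDH3G, a subunit of isocitrate dehydrogenase, and 1 each in the succinate dehydrogenase subunits SDHA and SDHB, the last being intergenic and outside the RefSeq span, which leaves 2 genes by span. Of 14 regulators of glycolysis and pyruvate entry 2 had one, MYC with 7 and DLAT, a subunit of pyruvate dehydrogenase, with 2. The shares of the cycle and the regulators lie near the 13.2% of all protein-coding genes, and 7 genes are too few to set 0 apart from it, so none of these counts is a result about the pathways.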

How the data were processed

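LACE-seq libraries of NCI-H1299 cells, 2 with anti-P5CS and 2 with IgG, were grouped by sample title. Per the submitters' processing notes, the tools included STAR 2.7.10a and fastp 0.23.2 and the build was hg38, with no role stated. The labels and headers name no site caller, threshold, pooling of libraries or use of IgG. From the authors comes 1 deposited list with 17625 sites, whose numeric columns hold positions, widths and distances in bases and, per the file headers, no count, score or level per library. Every start and end lies on a grid of 20 bases. Columns of values per library not used numbered 0.

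Sites were taken by gene symbol. The RefSeq table of GRCh38.p14 gave spans, biotypes and overlaps of at least 1 base. Pairs share start and end on both strands, and loci join overlapping sites. Regions and exon numbers are those of the list. Genes named are the 10 chosen, list genes with a site, and the 5 protein-coding genes closest to FASN by sites, of which 1 is not reported here. The hexokinases, PFKL, PFKM, PGAM1, LDHB, ACLY, ACACA, ACACB, DUS1L, the small RNA genes and the pseudogenes were named after their counts were seen. So were PKD1, PIEZO1, APLP2, CTBP1 and GAS6. The genes and the 6 gene lists were chosen with earlier results of these data known. The planned tests between anti-P5CS and IgG could not be run without values per library. Alternatives changed width, pairs, strand, merging and gene assignment. Counting was tested on simulated data. Python 3.11.15, pandas 2.3.3, numpy 2.4.6, scipy 1.17.1 and matplotlib 3.10.9 were used.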

Additional observations from a re-analysis of the deposited data

How the results depend on the processing

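Across 11 alternative settings 87 of 115 values stayed within 1.5 times the reported count or within the interval of the reported share, and 28 did not. With RefSeq spans in place of symbols none moved that far. Merging touching sites moved none either. With only wider sites the 10 genes had 13 sites in 3 genes, FASN 7, GPI 3, GAPDH 3, each of the glycolysis and fatty acid synthesis lists 2 genes with a site, and introns 23.1%. With only the smallest sites GAPDH had 5. With pairs left out the 10 genes had 30 sites, FASN 12, the fatty acid list 5 genes, and the opposite strand 76.7%. With each pair counted once FASN had 25 sites and pairs made up 37.5%. On the gene strand alone the 10 genes had 25 sites, FASN 16, GPI 4 and GAPDH 3, and pairs made up 72.0%. On the opposite strand alone the 10 genes had 41, FASN 22 and GAPDH 5. The lower counts follow from using fewer sites. Each pair has 1 site on each strand. The shares moved by leaving out pairs, counting them once or keeping 1 strand thus follow by arithmetic. The cause of the other moved shares was not tested. With only sites whose text names the gene, which drops UTR sites, GAPDH had 4 and the fatty acid list 5 genes. Without FASN exons made up 32.1%, introns 50% and pairs 35.7%. Leaving out FASN for introns, and the sites over SNORD134, were alternatives chosen after seeing the data, and the second moved no value that far. Shares that a setting fixes by construction (the strand share on 1 strand or with pairs counted once, the pair share without pairs, the 3' UTR share by text) were not computed. No paired analysis was possible because the list holds no value per library, and for the same reason no replicate was left out. Depth is unknown, so it cannot be said which genes had too few reads for a site.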
